A study of Homo sapiens with 48 samples.

Results

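Aminoacyl-tRNA synthetases join each amino acid to its transfer RNA, at the cost of ATP, and so feed the ribosome with charged tRNA. Cytosolic and mitochondrial translation mostly use separate enzymes, both encoded in the nucleus; the gene names end in 1 (or A and B for the subunits of the phenylalanine enzyme) for the cytosolic enzyme and in 2 for the mitochondrial one. GARS1 and KARS1 are known exceptions, since each gives both forms. Several cytosolic enzymes sit in a multi-synthetase complex held together by the scaffold proteins AIMP1, AIMP2 and EEF1E1. Transcription of many cytosolic synthetase genes is known to be raised by ATF4, the factor that also drives asparagine synthetase when amino acids run short.

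The genes described here were chosen by name: 33 genes, of which 19 encode cytosolic synthetases, 3 the scaffold proteins and 11 mitochondrial synthetases. Of these, 26 had at least 1 probe set annotated to them alone, 37 probe sets in all, out of 11963 genes and 22215 probe sets tested. They comprise 16 cytosolic synthetases, AIMP1 and 9 mitochondrial synthetases. A further 3 genes, MARS1, QARS1 and TARS2, were seen only through 5 probe sets that the annotation shares between the gene and a microRNA gene. FARSB, AIMP2, EEF1E1 and VARS2 had no annotated probe set and were not analysed here. A gene is represented by its brightest probe set, meaning the one with the highest mean over all samples, and counts are over the 26 genes unless stated otherwise.

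All samples are RNA of K562, an established human leukaemia line whose growth depends on the BCR-ABL1 fusion kinase. The letters A to H mark 8 sets of 3 mock samples, treated for a time the labels do not give, and 3 samples given imatinib, an inhibitor of that kinase, at 1 micromolar for 24 hours; what distinguishes the sets is not stated. All 24 imatinib samples carry a keyword for mock treatment, against their own titles and description sentences, which were used for the groups here. Mock RNA was isolated with Trizol and then an RNeasy column, imatinib RNA with the column only, and spike controls were added to imatinib samples at a reduced amount, so these differences cannot be told apart from treatment.

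The 5 measured K562 markers, erythroid genes such as HBE1 and GATA1, were all no dimmer than the median probe set and were called higher after imatinib. Of 11 measured markers of T cells, B cells, monocytes and fibroblasts, 6 were no dimmer than that, 2 were called lower and 4 higher, with changes from -0.44 (LYZ) to 0.19 (DCN). Of all 11963 genes, 6974 were no dimmer than that, 27.1% were called lower and 41.6% higher. The part of these markers in the results below was not tested. The 3' to 5' ratio of the actin control, a measure of RNA integrity and labelling, was higher after imatinib by 0.15 ± 0.19 log2 (SD, n = 8 sets), above 0 in 6 of 8 sets (exact two-sided sign-flip permutation p = 0.0469, adjusted over 2 controls 0.0938). For GAPDH the difference was 0.02 ± 0.08 (exact sign-flip permutation p = 0.531, adjusted 0.531). What part this had in the changes of synthetase genes was not tested. In samples of bulk RNA, less RNA per cell and fewer cells carrying the RNA cannot be told apart.

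The question was how far the transcripts of tRNA charging differed between imatinib and mock samples, within each set and between the compartments. Cytosolic synthetase transcripts were lower after imatinib almost throughout, while the mitochondrial ones were divided. A gene is called when its adjusted p is under 0.05 in limma, fitted over all probe sets with the set as a factor. In that fit of 24 against 24 samples, 15 of 16 cytosolic genes were called lower. The other 1, EPRS1, was called higher by its brightest probe set, while its other probe sets were called lower. Of 9 mitochondrial genes 5 were called lower, 1 (WARS2) higher, and 3 were not called. For comparison, 27.1% of all genes were called lower and 41.6% higher. The median log2 change was -0.56 for the cytosolic and -0.14 for the mitochondrial genes, against 0.05 for all genes. Of all calls over all genes, 39.4% were downward as deposited, 50.1% with arrays centred on their medians and 41.7% after quantile normalization within sets, and under both scalings the cytosolic and mitochondrial counts were 15 and 1, and 5 and 1, as above.

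**Figure D1:**
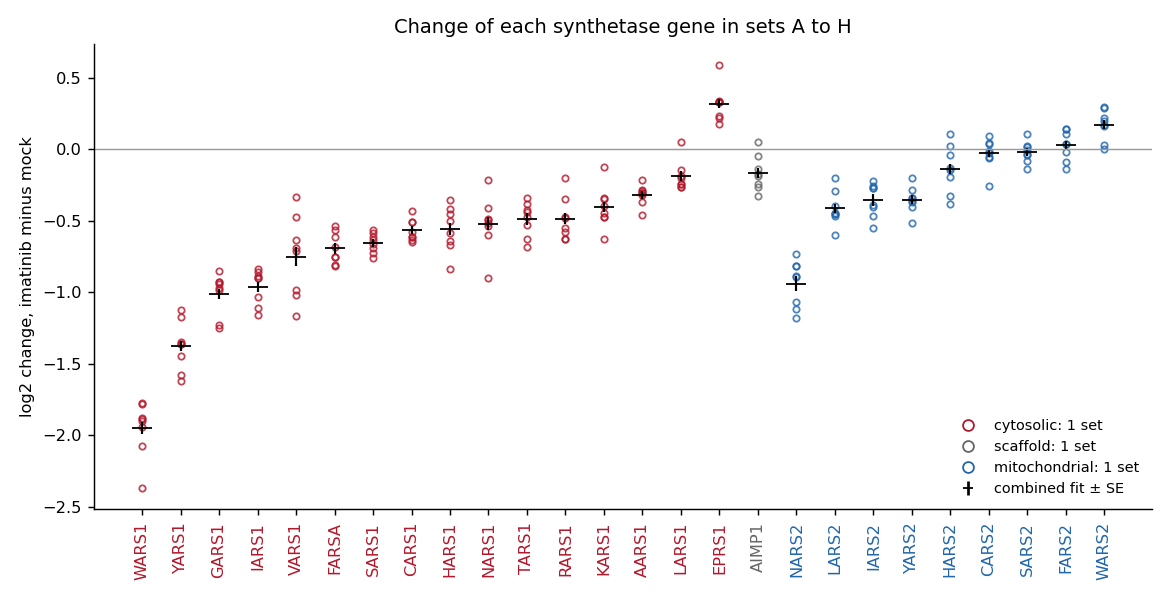
Log2 change, imatinib minus mock, of the brightest probe set of each of the 26 measured genes; open circles are the 8 sets, bars the combined fit with its standard error. WARS1 lies lowest, at -1.95, EPRS1 is the cytosolic gene above 0 in every set, and NARS2 is the lowest mitochondrial gene, at -0.94.

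WARS1, the tryptophan enzyme, which interferon gamma is also known to induce, showed the largest change of the family. Relative to the mean of the mock samples of the same set, the 24 mock samples lay between -0.19 and 0.26 log2, with a median of 0.00, and the 24 imatinib samples between -2.48 and -1.66, with a median of -1.89. The groups did not overlap in any set, with imatinib lower, as for 9.91% of all genes. In single sets, from 2053 (set F) to 3041 (set C) of all 11963 genes lay apart downward. In set C, where the difference was largest, the mock samples were at log2 levels of 10.48, 10.64 and 10.67 and the imatinib samples at 8.29, 8.27 and 8.12. In set D the mock samples were at 10.05, 10.39 and 10.28 and the imatinib samples at 8.45, 8.44 and 8.50. The combined change was -1.95 ± 0.04 (SE, n = 24 per treatment), 3.87-fold lower after imatinib (limma adjusted p = 2.53e-38). The dimmer WARS1 probe set had a change of -2.22 ± 0.04, so both probe sets placed the gene well past a 2-fold fall.

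YARS1, the tyrosine enzyme, came next. Its mock samples lay between -0.15 and 0.15 around their set mean and its imatinib samples between -1.87 and -0.95, apart in all 8 sets. The change was -1.38 ± 0.04, or 2.60-fold lower (limma adjusted p = 1.02e-33). GARS1, which supplies the glycine enzyme to both compartments, was 2.01-fold lower, with a change of -1.01 ± 0.03 (limma adjusted p = 3.16e-30). Its imatinib samples ranged from -1.36 to -0.81 with a median of -0.94, all below the mock range of -0.15 to 0.18. WARS1, YARS1 and GARS1 were the 3 of 16 cytosolic genes that fell at least 2-fold by the brightest probe set, against 2.44% of all genes. VARS1 is not among them by that choice, but its other probe set, the brighter one in mock samples (9.16 against 9.06), was 2.83-fold lower, and the mean of both gave a change of -1.13.

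IARS1, the isoleucine enzyme and a member of the complex, fell by 0.96 ± 0.04, with imatinib samples from -1.40 to -0.76 and mock samples from -0.16 to 0.20 (limma adjusted p = 2.54e-28). VARS1, the valine enzyme, fell by 0.75 ± 0.06 (limma adjusted p = 1.98e-14). It had the largest standard error of the cytosolic genes: mock samples spread from -0.58 to 0.38 and imatinib samples from -1.27 to -0.14, and the groups were separate in 7 of 8 sets. FARSA, the alpha subunit of the phenylalanine enzyme, fell by 0.69 ± 0.04, with imatinib samples from -0.99 to -0.46 against mock samples from -0.24 to 0.26 (limma adjusted p = 1.32e-21).

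**Figure D2:**
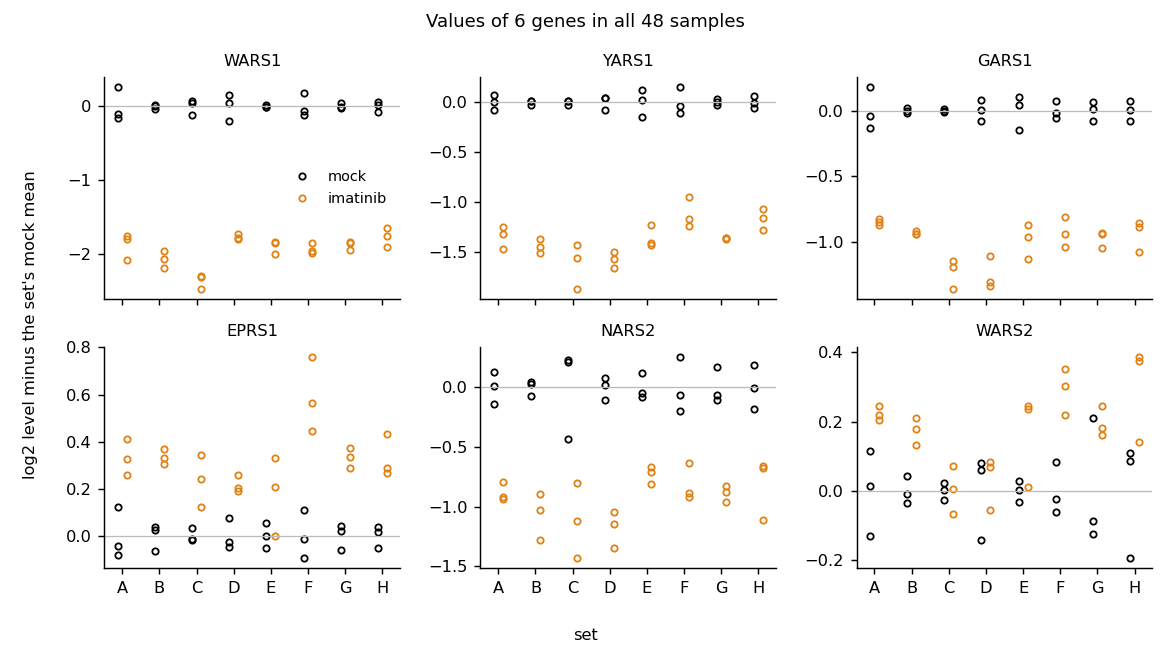
Log2 level of 6 genes in each of the 48 samples, minus the mean of the mock samples of the same set; black circles are mock and orange circles imatinib samples, by set, and the vertical scale differs between panels. For WARS1, YARS1, GARS1 and NARS2 all imatinib samples lie below the mock samples of their set, for EPRS1 they lie above in 7 of 8 sets, and for WARS2 in 4. In single sets, from 1729 (set F) to 4727 (set B) of all 11963 genes lie apart upward.

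The other 9 cytosolic genes that were called lower had changes between -0.65 and -0.19, with limma adjusted p-values of at most 2.68e-06. SARS1, for serine, fell by 0.65, and CARS1, for cysteine, and HARS1, for histidine, both had a change of -0.56. NARS1, for asparagine, had a change of -0.52, TARS1, for threonine, one of -0.49 and RARS1, for arginine, one of -0.48. KARS1, the lysine enzyme of both compartments, stood at -0.40, AARS1, for alanine, at -0.32 and LARS1, for leucine, at -0.19. The LARS1 probe set carries the mark of probes that can match other transcripts. In set F LARS1 was 0.05 higher after imatinib, and its imatinib samples overall reached from -0.41 to 0.22.

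EPRS1, which encodes the fused glutamate and proline enzyme of the complex, went the other way by its brightest probe set. Its imatinib samples lay between 0.00 and 0.76 above the mock mean of their set, with a median of 0.32, and its mock samples between -0.10 and 0.12. In set F the mock samples were at 9.77, 9.97 and 9.85 and the imatinib samples at 10.31, 10.43 and 10.62. Set E was the exception, with 1 imatinib sample at 9.61 among mock samples of 9.61, 9.67 and 9.56. The change was 0.32 ± 0.03 (limma adjusted p = 5.64e-13). The other 2 EPRS1 probe sets were called in the opposite direction: one fell by 0.15 ± 0.04 (limma adjusted p = 0.0025) and the dimmest fell by 0.35 ± 0.06 (limma adjusted p = 2.24e-06). No direction can therefore be given for EPRS1 as a gene, and with its 3 probe sets averaged the change was -0.06 (limma adjusted p = 0.11).

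Among the 26 genes, 9 had more than 1 probe set, 20 in all. For 8 of the 9 all probe sets had the same call, and EPRS1 was called both ways. Sizes differed more than directions. The other VARS1 probe set had a change of -1.50 against -0.75, and the dimmer LARS2 one of -0.84 against -0.41. FARSA had -0.46 by its other probe set against -0.69. For KARS1 the probe sets gave -0.49 and -0.40, and for CARS1 -0.51 and -0.56. AIMP1, the scaffold protein that is also released as a cytokine, had a change of -0.17 ± 0.03 by the brighter and -0.68 ± 0.06 by the dimmer probe set (limma adjusted p = 1.97e-05 and 1.05e-13). Its call by the brighter probe set was lost after quantile normalization, where the change was -0.03 (limma adjusted p = 0.206).

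**Figure D3:**
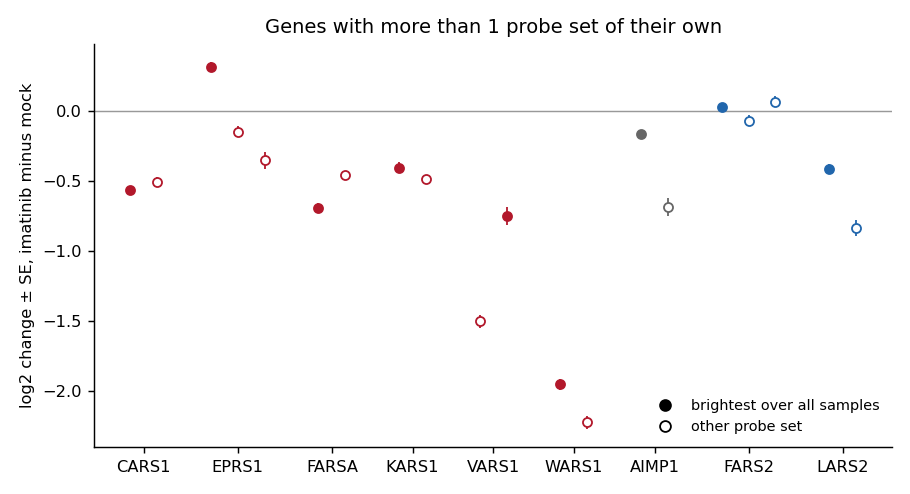
Combined log2 change with its standard error for every probe set of the 9 genes with more than 1 probe set of their own; filled points are the brightest probe set over all samples, and within a gene points run from high to low mock level. The EPRS1 points lie on both sides of 0, at 0.32, -0.15 and -0.35, while the 2 VARS1 points lie at -1.50 and -0.75.

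The jointly annotated probe sets are not counted above. Of the 3 that share MARS1, the methionine enzyme, with MIR6758, the brightest had a change of -1.25 ± 0.03 (limma adjusted p = 2.07e-33) and the next -1.66 ± 0.06. The brightest carries the same mark as the LARS1 probe set, of probes that can match other transcripts. The third, at a mock level of 5.64, had -0.17 ± 0.03. The probe set shared by QARS1, the glutamine enzyme, and MIR6890 was higher by 0.37 ± 0.03, apart from mock in all 8 sets (limma adjusted p = 3.06e-16). The share of all genes apart upward in all 8 sets was not counted. That of TARS2, the mitochondrial threonine enzyme, and MIR6878 fell by 0.47 ± 0.04 (limma adjusted p = 4.22e-15). Which transcript carried these signals cannot be told from the annotation. With them included, 16 cytosolic genes were called lower and 2 higher.

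Enzymes of the multi-synthetase complex changed less by the median than those outside it. The 5 measured alone (EPRS1, IARS1, KARS1, LARS1 and RARS1) had a median of -0.40, with IARS1 lowest, and the 11 others a median of -0.65. EPRS1 entered at 0.32, by its brightest probe set only. MARS1 and QARS1, also enzymes of the complex, were left out as jointly annotated. Their brightest probe sets had changes of -1.25 and 0.37. This grouping was made after the values were seen, and the difference was not tested.

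The sequences around the starts of these genes were searched for the element to which ATF4 and C/EBP proteins are known to bind as a pair. RefSeq promoter windows of 300 bases (250 before and 50 after the gene start, GRCh38.p14) were found for 29 of the 33 genes, 40 windows in all; LARS1, VARS1, YARS1 and VARS2 were not among them. The element was written as TGATGNAA on either strand. It was present for 7 of 16 cytosolic, 1 of 10 mitochondrial and 0 of 3 scaffold genes, against 4.46% of all 27305 genes in the table. Within the 250 bases before the start alone, it was present for 3 of 16 cytosolic genes (AARS1, GARS1 and IARS1) and for YARS2 among the mitochondrial ones, against 3.89% of all genes; the matches of CARS1 and MARS1 run across the start and those of NARS1 and TARS1 lie after it. Counted by window, it was in 7 of 21 cytosolic windows and in 3.62% of all windows. The E-box CACGTG, the site of MYC and related factors, was present for 1 of 16 cytosolic, 1 of 10 mitochondrial and 1 of 3 scaffold genes, against 8.77% of all genes. A match is a description of the letters and not a shown binding site.

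The 8 matches are printed to show where each lies and what surrounds it; their likeness to each other follows from the search. Each line gives 30 bases on the strand of the gene, 5′ to 3′, with the match in capitals, and the place of the first base of the match relative to the start of its window's transcript:
AARS1 (chr16:70289675-70289704, minus strand, 187 bases before the start): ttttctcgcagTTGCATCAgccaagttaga
CARS1 (chr11:3057407-3057436, minus strand, first base 2 before the start, match across it): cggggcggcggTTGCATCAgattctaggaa
GARS1 (chr7:30594834-30594863, plus strand, 33 bases before the start): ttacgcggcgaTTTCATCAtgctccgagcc
IARS1 (chr9:92293692-92293721, minus strand, 13 bases before the start): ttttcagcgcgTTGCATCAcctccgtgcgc
MARS1 (chr12:57488053-57488082, plus strand, first base 4 before the start, match across it): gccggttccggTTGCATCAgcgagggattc
NARS1 (chr18:57621804-57621833, minus strand, 14 bases after the start): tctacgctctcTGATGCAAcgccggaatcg
TARS1 (chr5:33440956-33440985, plus strand, 2 bases after the start): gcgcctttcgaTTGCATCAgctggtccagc
YARS2 (chr12:32756076-32756105, minus strand, 197 bases before the start): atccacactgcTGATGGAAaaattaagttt

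The medians of cytosolic genes with and without the element lay close together. The 6 cytosolic genes measured alone with the element (AARS1, CARS1, GARS1, IARS1, NARS1 and TARS1) had a median change of -0.54, from -1.01 to -0.32. The 7 without it in their windows had a median of -0.56, from -1.95 for WARS1 to 0.32 for EPRS1 by its brightest probe set. MARS1 has the element but was left out as jointly annotated, with a change of -1.25 by its brightest probe set. LARS1, VARS1 and YARS1 had no window and are in neither group. The difference between the groups was not tested.

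Mitochondrial synthetases showed smaller and mixed changes. NARS2, the mitochondrial asparagine enzyme, fell most of its class by the brightest probe sets, by 0.94 ± 0.05, 1.92-fold (limma adjusted p = 3.40e-21). Its imatinib samples lay between -1.44 and -0.63 and its mock samples between -0.44 and 0.26, apart in all 8 sets. The low mock value came from set C, where the mock samples were at 7.76, 8.43 and 8.41 and the imatinib samples at 7.08, 7.40 and 6.76.

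LARS2, for leucine, fell by 0.41 ± 0.03 (limma adjusted p = 9.38e-16), with imatinib samples from -0.69 to -0.07 and mock samples from -0.18 to 0.14. The dimmer LARS2 probe set fell by 0.84 ± 0.06, close to the fall of NARS2. IARS2, for isoleucine, fell by 0.35 ± 0.04 (limma adjusted p = 3.66e-11), with imatinib samples from -0.79 to -0.11 and mock samples up to 0.36. YARS2, for tyrosine, fell by 0.35 ± 0.03 (limma adjusted p = 6.05e-14), with imatinib samples from -0.77 to -0.13. Each of the 3 was separate from mock in 7 of 8 sets. The share of all genes separate in that many sets was not counted. In single sets it was from 2053 (set F) to 3041 (set C) of 11963 genes, downward. YARS2 was the 1 member below the median level of all probe sets.

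HARS2, for histidine, had a small change of -0.14 ± 0.04 (limma adjusted p = 0.000991), with imatinib samples from -0.50 to 0.26 that overlapped mock in 4 of 8 sets. WARS2, for tryptophan, was the mitochondrial enzyme that rose, by 0.17 ± 0.03 (limma adjusted p = 4.38e-06). In set H its mock samples were at 6.87, 7.15 and 7.18 and its imatinib samples at 7.21, 7.46 and 7.44, whereas in set C the mock samples, at 6.31, 6.36 and 6.34, and the imatinib samples, at 6.34, 6.41 and 6.27, overlapped. CARS2 (-0.03 ± 0.03), SARS2 (-0.02 ± 0.03) and FARS2 (0.03 ± 0.03) were not called, with limma adjusted p-values of 0.379, 0.576 and 0.42. The other FARS2 probe sets, at -0.07 and 0.07, were not called either.

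Where both enzymes for an amino acid were measured, the change of their ratio within each array was tested, which centring an array does not alter. Of 9 such pairs, 7 shifted toward the mitochondrial enzyme, each in all 8 sets, and 2 shifted the other way. All 9 shifts were called. How often the ratio of 2 other genes is called was not tested. Of single genes, 27.1% were called lower and 41.6% higher. In every pair the mitochondrial probe set was the dimmer one in mock samples. WARS2 was at 6.73 against 10.40 for WARS1, and NARS2 at 8.60 against 10.58 for NARS1. The dimmest, YARS2 at 6.44, lay near the median of all probe sets, 6.43. What part level had in the shifts was not tested. The difference between the cytosolic and the mitochondrial change was largest for tryptophan, at -2.12 ± 0.04 (SE, limma adjusted p = 1.11e-39), and between -2.37 and -1.81 in the sets. For tyrosine it was -1.02 ± 0.04 (limma adjusted p = 4.83e-29), for phenylalanine (FARSA against FARS2) -0.72 ± 0.05 and for serine -0.64 ± 0.04. Isoleucine followed with -0.61 ± 0.03, cysteine with -0.54 ± 0.04 and histidine with -0.42 ± 0.04 (limma adjusted p of 1.40e-14 or less for these 5). With probe sets free of marks of shared probes, the phenylalanine difference was -0.39.

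The exceptions were asparagine and leucine, where the mitochondrial enzyme fell more. NARS1 fell by 0.52 and NARS2 by 0.94 log2, a difference of 0.42 ± 0.06 (limma adjusted p = 3.01e-08), above 0 in 7 of 8 sets. LARS1 fell by 0.19 and LARS2 by 0.41 log2, a difference of 0.22 ± 0.05 (limma adjusted p = 8.03e-05), likewise above 0 in all but 1 set. The size of the leucine difference depends on the probe sets. That of LARS1 carries the mark of probes that can match other transcripts, and the dimmer one of LARS2 fell by 0.84. The genes HARS1 and HARS2 lie head to head on chromosome 5, and 184 of the 300 bases of their promoter windows are shared. Their transcripts changed by -0.56 for HARS1 and by -0.14 for HARS2, and what part the shared bases had was not tested.

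**Figure D4:**
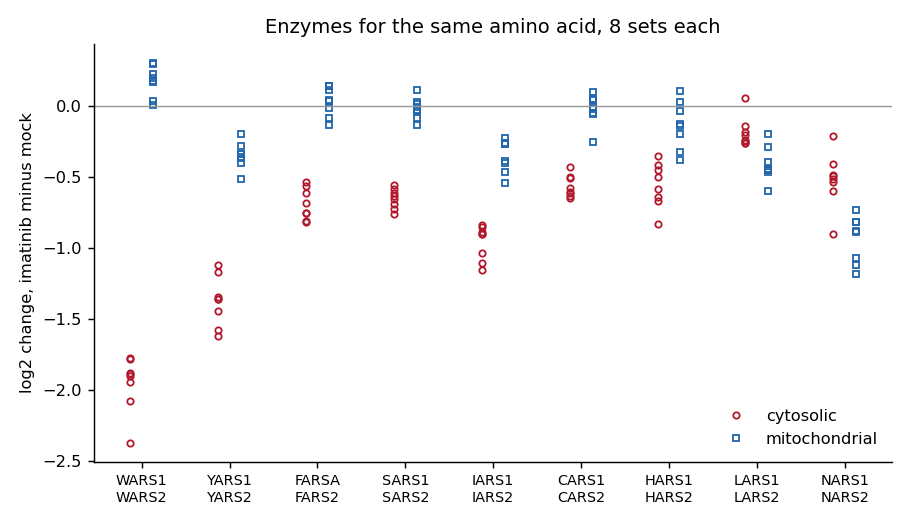
Log2 change, imatinib minus mock, of the cytosolic (red circles) and the mitochondrial (blue squares) enzyme for the same amino acid, 1 point per set. From tryptophan to histidine the cytosolic points lie lower, with combined differences from -2.12 to -0.42; for leucine and asparagine, at the right, the mitochondrial points lie lower.

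Fitted alone, each set of 3 against 3 samples gave the same picture for the cytosolic enzymes. In sets B, C, D and G, 15 of 16 were called lower, where 21.3%, 21.4%, 20.3% and 16.9% of all genes were. The counts were 14 in set A, 13 in set H, 12 in set E and 11 in set F, against 15.9%, 12.7%, 13.7% and 10.7% of all genes. The last 4 sets were also the 4 with the fewest genes called lower over all genes. Of the 9 mitochondrial genes, 5 were called lower in sets C and D, 4 in B and H, 3 in A, E and G and 2 in F. The 4 in set H became 1 without mock replicate 3 or imatinib replicate 3 and 2 without mock replicate 1, and the 3 in set E became 1 without mock replicate 2 or imatinib replicate 3.

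The set medians of the cytosolic genes lay between -0.72 in set C and -0.45 in set F, and those of the mitochondrial genes between -0.38 in set C and 0.02 in set H. Set C held the lowest change for 8 of 16 cytosolic genes, and set F the highest for 7. For 11 of 16 cytosolic genes the imatinib samples lay below all mock samples in each of the 8 sets, against 9.91% of all genes; among mitochondrial genes this held for NARS2 only. In a limma fit with a separate treatment term for each set, the terms were unequal for 3 of the 26 genes (WARS1, YARS1 and HARS2), against 7.03% of all genes.

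Other genes of tRNA charging and its supply were counted from lists. Of 6 measured further charging genes 3 were called lower and 2 higher, with a median of -0.02. QRSL1 encodes a subunit of the mitochondrial enzyme that amidates glutamate attached to the glutamine tRNA. The QRSL1 transcript fell by 0.42 ± 0.04, while that of GATB, another subunit of this enzyme, rose by 0.24 ± 0.03. The pyrophosphatases that clear the by-product of charging were divided likewise: cytosolic PPA1 fell by 0.29 and mitochondrial PPA2 rose by 0.34 (limma adjusted p of 4.48e-09 or less for these 4 genes). Of 14 genes of delivery, export and supply of tRNA, 10 were called lower and 2 higher, with a median of -0.34. RPP40, a protein of the nuclease that trims tRNA precursors, fell by 0.97, TUFM, the mitochondrial elongation factor that brings charged tRNA to the ribosome, fell by 0.77, its exchange factor TSFM fell by 0.46 and the RNA polymerase III subunit POLR3K fell by 0.63 (limma adjusted p of 1.63e-19 or less).

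Of 13 measured genes around ATF4, the response to scarce amino acids, 10 were called lower and 2 higher, with a median of -1.08. TRIB3, an inhibitor within that response, had a change of -1.73, the transcription factor gene ATF3 one of -1.72, ASNS, asparagine synthetase, one of -1.71 and DDIT4, an inhibitor of mTORC1 signalling, one of -1.61 (limma adjusted p of 4.71e-29 or less). ATF4 itself, which is mainly controlled at translation, fell by 0.27 ± 0.03 (limma adjusted p = 1.95e-11). These lists were chosen with earlier results of these data known, and their counts stand beside 27.1% of all genes lower and 41.6% higher. Under both other scalings the counts of these 3 lists were the same.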

How the data were processed

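The authors deposited log2 levels of Affymetrix probe sets, 1 value per probe set and sample; how background, probe summary and normalization were handled is not given in the sources used. The log2 scale was inferred from the values, which ranged from 2.41 to 14.9. Array means differed by at most 0.053 within a set and between 5.89 and 7.60 over sets, so levels were compared within sets only. Control probe sets (68) were left out of the tests. Of 22215 probe sets, 19065 had 1 symbol, 1043 several and 2107 none; symbols were updated through the RefSeq gene table of GRCh38.p14, which matched 19053.

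Changes were tested across all probe sets with limma 3.58.1 in R 4.3.3 (lmFit, eBayes, two-sided, Benjamini-Hochberg, threshold 0.05), with the set as a factor, in each set alone, and with set-by-treatment terms. Ratios of enzyme pairs joined the table and were adjusted with it (22224 features). No dim probe sets were filtered in the main fit. The combined, set A, set-by-treatment and ratio fits were tested on simulated data. The simulated errors were independent between samples, so these runs cannot show how the fits behave where samples are not independent. Scaling, probe set choice, a dimness filter, variance model, 1 difference per set, the replicate block and leaving out samples or sets were tried as alternatives. The labels do not say whether replicates are separate cultures; the p-values rest on the spread among replicates, and that spread may be technical. Their number limits the precision. The closest replicates of a group differed by up to 0.67 log2 at a probe set, so none within a group were duplicates. Samples of different sets were not compared in this way. Whether sets share cultures or RNA is not stated, so the 24 samples per treatment may not be independent.

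Values in full were given for the 6 cytosolic and 4 mitochondrial genes with the largest change, AIMP1, members opposing their class or with probe sets called both ways, and the 4 genes with the smallest p of each other list; other members by their change. HARS2 and ATF4 were added after their values were seen. Members and lists were chosen with earlier results of these data known. Figures used matplotlib 3.10.9.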

Additional observations from a re-analysis of the deposited data

Results flagged for a closer look

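For 3 genes the size of the change by the brightest probe set differed between the sets by the set-by-treatment terms (limma, Benjamini-Hochberg over all probe sets). The adjusted p was 0.0287 for WARS1, whose set changes ran from -2.37 in C to -1.78 in D and in H, 0.0347 for YARS1, from -1.62 in C to -1.12 in F, and 0.0374 for HARS2, from -0.38 in C to 0.11 in H. WARS1 and YARS1 were called lower in all 8 sets, so for them the sets differed in size and not in direction. HARS2 was called lower in 2 sets and was above 0 in 2 others. HARS2 no longer passed this test after quantile normalization within sets. Of all genes, 841 of 11963 (7.03%) passed the same test, beside these 3 of 26 members. Whether the members exceed that share was not tested. Probe sets of members that were not used for the count passed as well. These were the other VARS1 (limma adjusted p = 0.0082) and WARS1 (0.0484) probe sets, that of TARS2 (0.0083) and the brighter ones of MARS1 (0.0114 and 0.0277).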

How the results depend on the processing

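Over 64 alternative settings, 22 of the 26 genes kept their direction and their side of the threshold in each setting that gave a value. The other 4 were AIMP1 and EPRS1, described above, and 2 genes that were not called in any of these settings: FARS2 turned to -0.0087 with centred arrays and to -0.067 with probe sets free of marks of shared probes, and CARS2 turned to 0.0051 without set G. EPRS1 turned to -0.059 with the mean of all probe sets, so that 0 cytosolic genes were called higher. With jointly annotated probe sets, chosen after seeing the data, 2 were. After quantile normalization the cytosolic median moved to -0.45, 0 scaffold genes were called lower, and the genes whose change differed between sets were 1 cytosolic and 0 mitochondrial. Leaving out 1 replicate gave 1 to 3 mitochondrial genes called lower in set E and 1 to 3 in set H. The 9 pair differences kept direction and call in every setting run for them. With the replicate number as a block, 7989 of 11963 genes were called against 8215, and 23 members with and without it; deviations of same-numbered samples correlated between -0.52 and 0.49 (median 0.016, 24 pairs), so the numbers were not taken to pair samples. With dim probe sets left out YARS2 was not tested.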
